A study of Mus musculus with 8 samples.

Results

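The sites described here are the promoter cytosines that the deposited table places in CpG shores, the DNA that flanks CpG islands. All rows of the promoter table with that annotation were taken, which gave 22015 sites of 203645 (10.8%) at 2710 genes. The table also held 156142 island sites, 1502 shelf sites and 23986 sites outside islands, shores and shelves. Methylation was measured by reduced representation bisulfite sequencing (RRBS), in which genomic DNA is cut by MspI at CCGG, treated with bisulfite and sequenced. Bisulfite turns unmethylated cytosine into uracil, so the methylation level of a site is the share of its reads that still carry cytosine. The DNA came from GS cells, cultured spermatogonia with germline stem cell activity, which the labels give as wild type and B6 and which were grown in medium with GDNF and FGF2. Control-F1 GS cells (lines 29, 37, 44 and 45) came from mice born after natural mating without treatment, and ICSI-F1 GS cells (lines 11, 17, 20 and 21) from mice born after intracytoplasmic sperm injection, each line with 1 library. The age of the mice was not given, the cells were sorted from testes by CD9 before culture, and it is not stated whether each line came from a different mouse, so p-values measure the spread between these lines.

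Most CpGs of the mouse genome are methylated, while CpG islands at gene starts are usually kept free of methylation. Shores are the zone of transition between these states. Methylation there varies more between tissues than in the islands themselves, and in male germ cells the paternal marks of imprinted genes are also kept as methylated CpGs.

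The lines differed in depth and in overall level. Once the authors' scaling of coverage was undone, the median shore site had 44 to 77 reads per line, and 1082565 to 1760777 reads fell on shore sites in each line. Lines 44, 45, 20 and 21, whose labels give the origin of the mice in the description field (label form 2), had a mean shore level of 12.9%, against 9.79% in lines 29, 37, 11 and 17, whose labels give it in the source name (label form 1). Both label forms hold 2 lines of each group. Values within each label form are given where they matter, as are tests with label form as a covariate.

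The sequences below show what a shore site is and the pair of sequence settings on which the levels turned. All are the plus strand of GRCm38.p6 from RefSeq, which has the same coordinates as mm10, and measured CpGs are in capitals. Tbx21 (chr11:97116212-97116292), Slc45a4 (chr15:73646269-73646349) and Pitpnm1 (chr19:4099298-4099378) hold the CpGs outside CCGG with the largest group differences. Dlx2 (chr2:71546964-71547044) and Gm15889 (chr8:94377778-94377858) hold a CpG inside CCGG, the whole of which is in capitals, and its strands differed. The pair of Otop3 windows (chr11:115334526-115334566, near the gene start, and chr11:115333969-115334004, far from it) shows the ends of a promoter that went from unmethylated to methylated.
Tbx21: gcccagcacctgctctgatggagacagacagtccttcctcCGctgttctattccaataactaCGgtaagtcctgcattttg
Slc45a4: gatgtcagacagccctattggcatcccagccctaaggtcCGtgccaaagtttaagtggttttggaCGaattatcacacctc
Pitpnm1: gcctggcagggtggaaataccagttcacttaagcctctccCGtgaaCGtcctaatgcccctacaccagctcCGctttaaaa
Dlx2: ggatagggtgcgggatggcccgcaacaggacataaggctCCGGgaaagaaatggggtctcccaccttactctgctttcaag
Gm15889: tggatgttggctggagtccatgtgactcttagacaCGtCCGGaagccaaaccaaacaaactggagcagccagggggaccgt
Otop3 near: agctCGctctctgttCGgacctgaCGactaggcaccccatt
Otop3 far: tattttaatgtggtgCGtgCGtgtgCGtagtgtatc

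The shore sites stood for 13762 CpGs in 2695 shore intervals, since the strands of a CpG are separate sites. They lay 1 to 999 bp from the gene start with a median of 331 bp, against 127 bp for island sites, and 48 of them, at 11 genes, lay downstream of it. A gene had a median of 6 shore sites and at most 63, 307 genes had 1 site, and 1958 of the 2710 genes also had island sites. Shore sites were poorer in CpGs than island sites. The 202 bases around a site, the CpG and 100 bp on either side, held on average 9.29 CpGs and 56.2% G or C in shores and 22.2 CpGs and 69.4% in islands.

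Shores were mostly unmethylated, and a CpG inside the MspI cut sequence gave another level than one outside it. Of the 22015 shore sites, 6405 (29.1%) had their CpG inside CCGG, against 14.0% of island sites, 25.0% of shelf sites and 25.5% of the remaining sites. The mean level of shore sites outside CCGG was 3.50%, 4.23%, 6.90% and 6.00% in control-F1 lines 29, 37, 44 and 45, and 3.60%, 4.12%, 6.68% and 5.50% in ICSI-F1 lines 11, 17, 20 and 21. Inside CCGG it was 24.5%, 22.0%, 29.7% and 28.6% in the control-F1 lines and 24.3%, 26.2%, 29.1% and 29.3% in the ICSI-F1 lines. Every line was thus higher inside CCGG than any line outside it. Of sites outside CCGG, 94.6% had a mean level over the 8 lines under 10%, while of sites inside it 50.3% did. At the other end, 954 shore sites had a level of 80% or more, 729 of them inside CCGG and 225 outside. This split was chosen after the data were seen, and each result below is given for both kinds of site where it differs.

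The level inside CCGG differed between the strands of one CpG. Among CpGs outside CCGG with both strands measured, the strands differed by a median of 1.28 percentage points and 1 of 6348 CpGs differed by over 20 points. Inside CCGG the median was 42.5 points, and 1259 of 1905 CpGs differed by over 20 points. Dlx2, a homeobox gene of forebrain and craniofacial development, is an example. Its single shore CpG, 250 bp from the start, had a mean of 97.0% over the 8 lines on the plus strand and 4.36% on the minus strand.

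Inside CCGG the level followed the distance to the neighbouring cut sequences, read in the 5′ to 3′ direction of the strand measured. Where the next CCGG on the 5′ side lay 30 to 160 bp away, the mean level of a shore site was 28.7% with the next 3′ CCGG within 160 bp (1398 sites), 48.8% with it 161 to 250 bp away (452 sites), 72.3% at 251 to 400 bp (399 sites) and 94.8% beyond 400 bp (379 sites). The lines were spread most at 251 to 400 bp. There the mean level was 67.9%, 38.6%, 83.4% and 82.0% in control-F1 lines 29, 37, 44 and 45 and 65.1%, 74.9%, 80.6% and 86.0% in ICSI-F1 lines 11, 17, 20 and 21, so that line 37, the line with the fewest reads, stood lowest. Where the 5′ CCGG was over 160 bp away the mean was 11.2% (3277 sites), with a median site of 5.41%. The plus strand of the Dlx2 CpG had its 5′ cut 127 bp and its 3′ cut 3635 bp away.

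**Figure D1:**
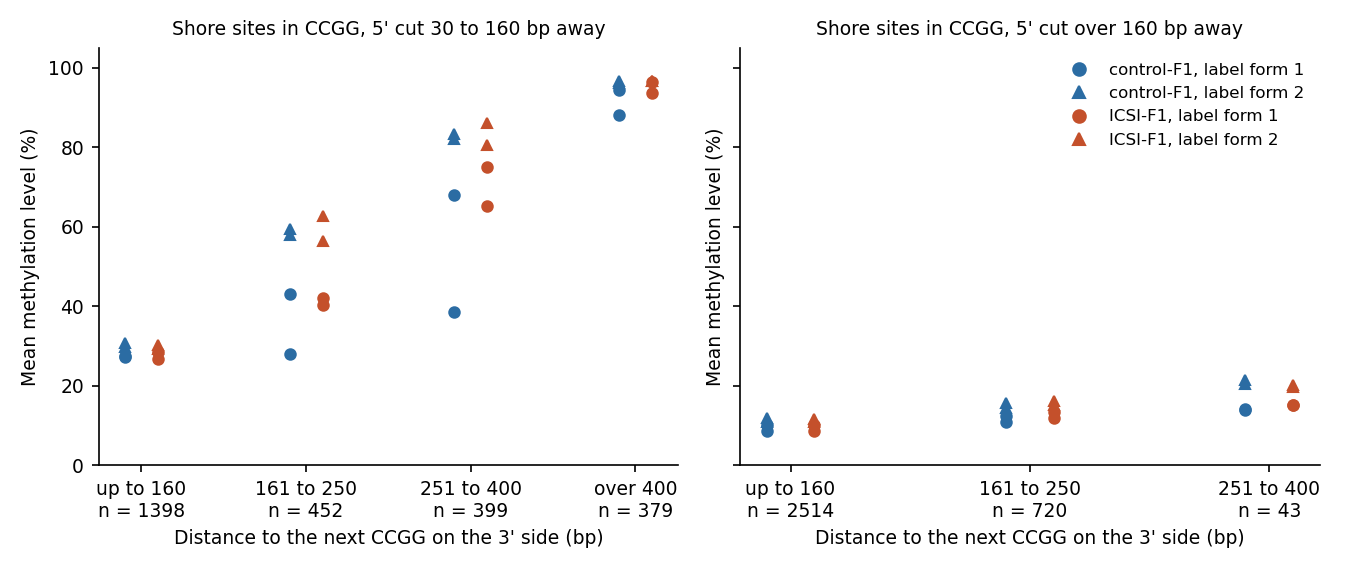
Mean methylation level (y axis, %) of shore sites inside CCGG in each of the 8 lines, by distance to the next CCGG on the 3′ side of the measured strand (x axis, bp, with the number of sites), for sites whose 5′ CCGG lies 30 to 160 bp away (left) or over 160 bp away (right). Each point is 1 line, colour gives the group and shape the label form. On the left the means over the 8 lines go from 28.7% to 94.8%, while on the right they stay between 10.4% and 17.5%.

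Islands showed the same order. With the 5′ CCGG 30 to 160 bp away, the means of island sites were 27.3%, 47.6%, 71.7% and 94.3% in the same classes of 3′ distance. Neighbouring CpGs did not share these levels. A shore site inside CCGG could be paired with a site outside it on the same strand, in the same gene and within 50 bp in 4456 cases, and the mean was 25.1% inside against 5.25% outside. With the 5′ cut 30 to 160 bp and the 3′ cut over 160 bp away, it was 67.7% against 5.27% in 818 pairs, and the site inside CCGG was over 20 points higher in 774 of them. With the 5′ cut over 160 bp away, it was 8.82% against 6.48% in 2056 pairs. In RRBS the ends that MspI leaves are filled in with cytosines supplied in the reaction, so a CCGG at a fragment end can carry a cytosine that was not in the genome. Whether a level inside CCGG, or its difference between strands, is that of the genomic DNA was not tested. Such levels are measured values only, and they are part of every mean and count over all shore sites.

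Methylation rose with distance from the gene start. Outside CCGG the mean level over the 8 lines was 3.30% within 99 bp of the start (2353 sites), 5.27% at 500 to under 600 bp, 7.94% at 700 to 799 bp, 13.03% at 800 to 899 bp and 16.8% at 900 to 999 bp (704 sites). The share of these sites under 10% fell from 98.2% in the nearest to 74.4% in the farthest bin. Inside CCGG the mean went from 23.0% to 38.8%. The curve was nearly flat over the nearest 500 bp and steep over the farthest 200 bp in each of the 8 lines. From the nearest to the farthest 100 bp, the level outside CCGG rose by 12.0, 11.6, 14.2 and 12.5 points in control-F1 lines 29, 37, 44 and 45 (mean 12.6 ± 1.15, SD, n = 4) and by 13.4, 14.4, 14.4 and 15.4 points in ICSI-F1 lines 11, 17, 20 and 21 (mean 14.4 ± 0.790, SD, n = 4). The groups overlapped, the difference was 1.83 points, and it was 2.13 points within label form 1 and 1.53 points within label form 2. Inside CCGG the rise was 14.2 to 15.7 points in the control-F1 lines and 15.9 to 17.03 points in the ICSI-F1 lines. There the groups did not overlap, and the means differed by 1.31 points.

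**Figure D2:**
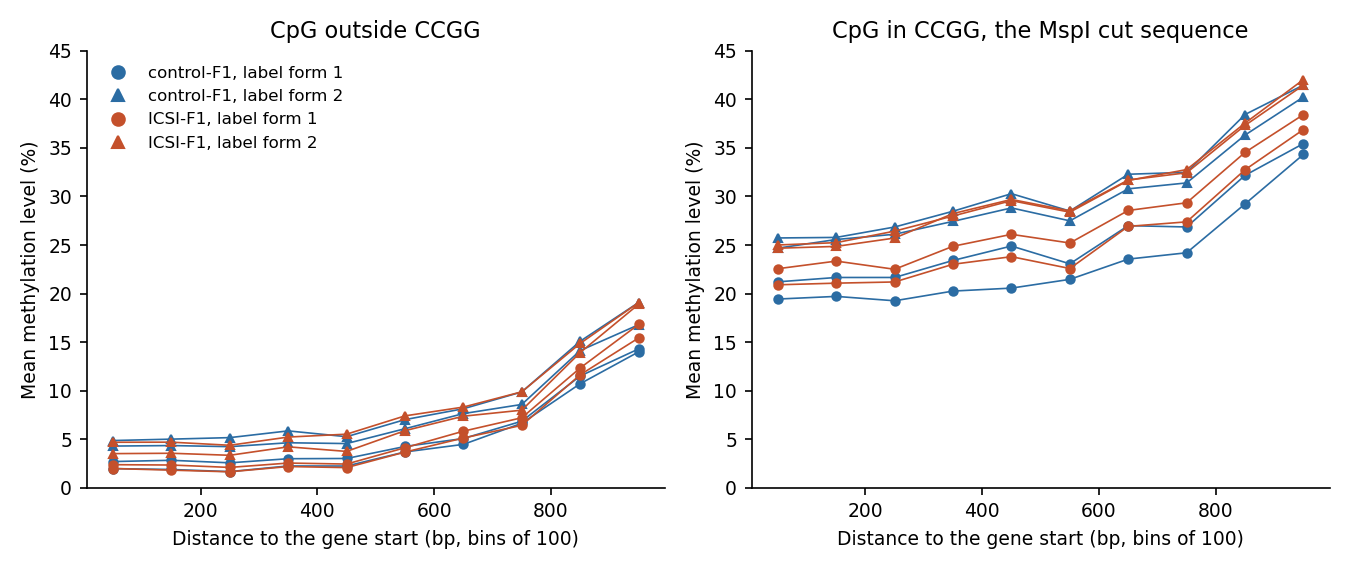
Mean methylation level (y axis, %) of shore sites in bins of 100 bp of distance to the gene start (x axis), for CpGs outside CCGG (left) and inside it (right). Each curve is 1 of the 8 lines, with the group by colour and the label form by shape. All curves rise over the farthest bins, and lines of label form 2 lie above those of label form 1.

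The rise was also seen within single promoters. Of the 88 genes with sites outside CCGG both within 300 bp and at 600 bp or more, 75 were higher far from the start, 18 by over 20 points, and none was lower by over 20 points. Their mean went from 2.90% near to 19.14% far. The median gene rose by only 2.57 points and 51 of the 88 genes moved by at most 5 points, so a small number of genes carried the mean. Gm45533, an unnamed gene model on chromosome 4, had the largest rise. Its sites outside CCGG 32 to 123 bp from the start had levels of 0.794% to 2.86%, and those at 844 to 988 bp had 88.0% to 99.5%. Otop3, a gene of the otopetrin proton channel family, had 2.25% to 9.37% at its 8 sites outside CCGG at 180 to 232 bp. At the 6 sites at 736 to 747 bp it had 94.2% to 97.6%. The near window printed above holds the sites at 180 to 201 bp, and the far window those at 736 to 747 bp. Agpat2, an acyltransferase of phospholipid and triglyceride synthesis, went from 1.88% to 6.22% at sites 138 to 382 bp away to 78.9% to 93.1% at sites 848 to 987 bp away, outside CCGG. Its shore lies in an intron of the overlapping gene Gm20532. Over all shore sites Mast3, a protein kinase gene, was among the largest rises, with 3.84% in the nearest and 95.8% in the farthest of 3 parts of equal size.

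Some promoters of this kind had a middle mean level that varied little between lines, which is how Otop3, Gm45533 and Mettl7a2 were chosen. Otop3 had 42.1%, 48.1%, 43.7% and 42.4% outside CCGG in control-F1 lines 29, 37, 44 and 45 and 42.6%, 46.0%, 46.2% and 40.3% in ICSI-F1 lines 11, 17, 20 and 21. Gm45533 lay between 41.1% and 47.5% in the 8 lines, and Mettl7a2, a methyltransferase-like gene, between 39.9% and 48.3%. In Mettl7a2 the sites nearest the start had a mean of 5.86% and those farthest from it 88.0% (of 3 parts of equal size), so all 3 means joined unmethylated and methylated CpGs. Agpat2 was lower and varied more, from 21.7% to 32.1% outside CCGG. Fam204a had a stable middle level of another kind. Its 6 shore sites had a mean of 36.4%, but the 2 sites outside CCGG had 7.12% and 3.31%, and the 4 sites inside it had 6.34%, 97.2%, 98.7% and 5.53%.

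A fall with distance was rarer. 2310047D07Rik, a gene with no assigned name, had 95.6% in the nearest and 52.4% in the farthest of 3 such parts of its 10 sites outside CCGG. Gjd3, which encodes a connexin of gap junctions, had 12.7% to 72.9% at its sites outside CCGG at 453 to 730 bp and 1.15% to 3.93% at those at 837 to 993 bp. For Glb1, the lysosomal beta-galactosidase gene, the nearest and farthest of these parts, over all shore sites, had 32.5% and 2.81%. In Glb1 the 5 sites inside CCGG had a mean of 36.7% and the 8 outside 2.74%.

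Levels did not change at the border of the island itself. An island edge could be placed, to about 100 bp, for 15943 shore sites (72.4%), using the islands that have sites in the table. Outside CCGG, island sites within 50 bp of the edge had a mean of 2.38% (11165 sites) and shore sites within 50 bp of it 2.46% (4012 sites). The mean was 3.19% at 200 to 300 bp into the shore, 4.99% at 300 to 500 bp, 15.3% at 500 to 1000 bp (788 sites) and 18.9% at 1000 to 2000 bp (157 sites at 17 genes). Islands not in the table could lie nearer.

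**Figure D3:**
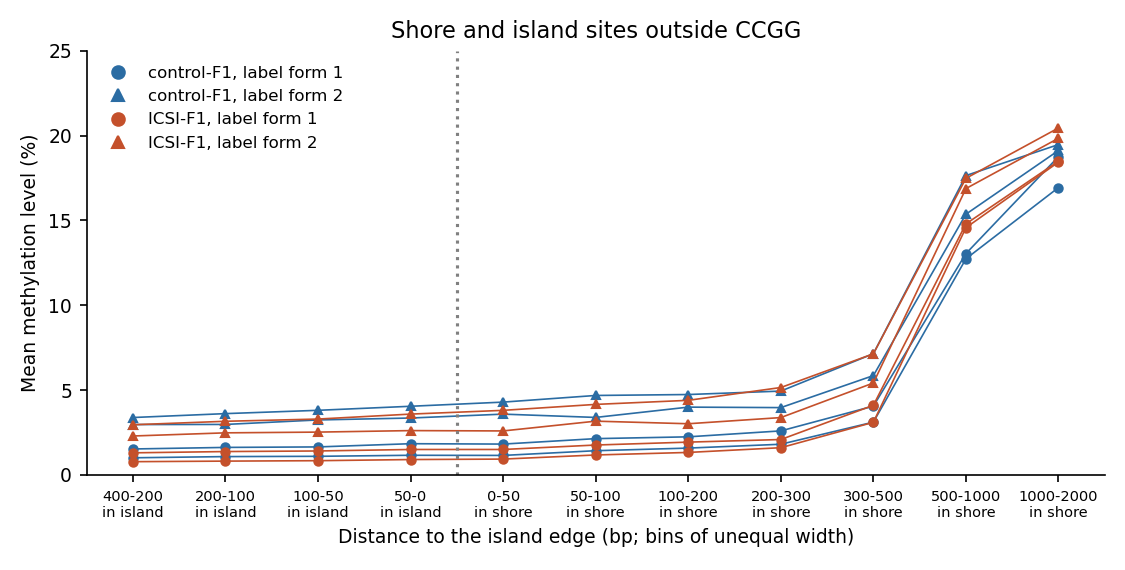
Mean methylation level (y axis, %) of sites outside CCGG in each of the 8 lines, by distance to the island edge (x axis, bins of unequal width; the dotted line is the edge, island sites to its left and shore sites to its right). The means reach at most 5.15% in any line up to 300 bp into the shore and lie between 12.7% and 20.4% beyond 500 bp.

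Distance to the edge and to the start went together, so sites were split by both. Outside CCGG, sites within 100 bp of the edge had 2.43% when under 300 bp from the start and 3.29% when at 600 bp or more. Sites 300 to 1000 bp from the edge had 3.24% when under 300 bp from the start, though these were 118 sites at 14 genes, and 11.7% when at 600 bp or more (1233 sites). Among sites with a placed edge, the mean was thus highest far from both. Methylated sites also lay elsewhere. Outside CCGG, 0.807% of all shore sites within 99 bp of the start had 80% or more. At 900 to 999 bp the share was 8.95%. Sites outside CCGG with a level under 10% had 10.1 CpGs in the 202 bases around them, those at 10% to 30% had 5.51, those at 30% to 70% had 4.60 and those at 70% or more had 5.26.

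The spread between lines of a group depended on the level. Outside CCGG the SD between lines was 4.10 points at the mean site, where counting of reads alone would give 2.37 points, and inside CCGG the values were 7.66 and 4.33 points. Middle levels were spread most. Outside CCGG the SD was 3.68 points at sites under 10%, 17.9 points at 40% to 60% and 6.34 points at 80% or more. Across the shore sites the levels of any 2 lines had a Pearson r of 0.850 to 0.954. This is a description over sites, which share libraries and reads, and pairs of lines from the same group (median 0.932 across and 0.928 within label forms) had values close to those from different groups (0.925 and 0.929).

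**Figure D4:**
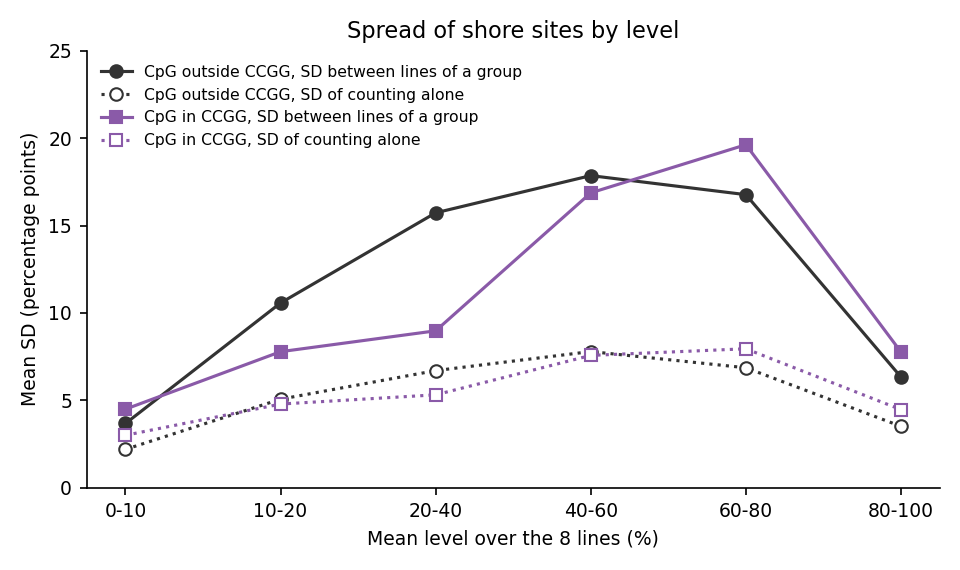
SD between the lines of a group (y axis, percentage points, mean over sites, filled symbols) and SD of counting alone (open symbols) for shore sites in classes of mean level over the 8 lines (x axis, %), outside CCGG (circles) and inside it (squares). The spread between lines lies above counting error in every class and is largest from 40% to 80%.

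Among promoters with at least 5 sites outside CCGG, 1162 of 1223 had a mean level under 10%, 28 had 10% to 30%, 16 had 30% to 70% and 17 had more. The highest of them was Mtln, which encodes a mitochondrial microprotein, with 94.3% to 100% in the 8 lines at its 5 sites outside CCGG and 97.2% over all 6 shore sites. Over all shore sites, 4930572G02Rik (97.1%) and Cops8, a subunit of the COP9 signalosome (96.6%), followed. The promoters with the largest SD over lines outside CCGG were Gm11077 (18.3% to 96.2%), Shtn1, a gene of neuronal polarity (45.7% to 97.4%), and Rad18, a ubiquitin ligase of DNA damage tolerance (27.7% to 80.7%). At Rad18, line 11 of the ICSI-F1 group gave the highest value and the other lines lay between 27.7% and 49.4%.

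The question for the groups was whether birth after ICSI changed shore methylation. Control-F1 lines had a mean of 11.3% ± 2.09 (SD, n = 4) over all shore sites, and ICSI-F1 lines one of 11.4% ± 1.65 (SD, n = 4). The ICSI-F1 mean was thus 0.157 points above that of control-F1, less than the SD of either group, and it was −0.185 points above it outside CCGG and 0.990 points inside. Of the 22015 sites, 18516 (84.1%) had group means within 5 points of each other and 169 over 20 points apart. No shore site passed the limma-moderated logistic test over all sites of the table (0 of 21696, Benjamini-Hochberg adjusted p, smallest 0.129), where 0% of all 196818 tested sites passed. With at least 30 reads as deposited in every line 23 shore sites were called (background 0.0513%), 21 of them higher in ICSI-F1, and without line 44 there were 14 (background 0.0363%). The 23 sites lay at 13 genes. Gjd3 held 5, Pitpnm1 and Tjap1 3 each, Nsd1 and Gm15889 2 each, and Agpat2, Aif1l, Exoc3l, Gm50037, Man1c1, Shtn1, Slc45a4 and Syde1 1 each. At an unadjusted p under 0.05, 727 shore sites (3.35%) were higher and 872 (4.02%) lower in ICSI-F1, where all sites gave 2.59% and 4.47%. In simulated data, 8.59% of unchanged sites were under 0.05 by this test. It recovered 10% of differences of 20 points, added at sites over 10% with at least 30 deposited reads in every line. With label form as a covariate the test again called 0 shore sites (smallest adjusted p 0.253), and 2857 (13.2%) were under an unadjusted p of 0.05, against 15.4% of all sites. With the scaling of coverage undone it called 0 as well (smallest adjusted p 0.0571). No shore promoter passed limma over all promoters (0 of 2170, and 0% of 9662 promoter units in all). At an unadjusted p under 0.05, 35 were higher (1.61%) and 36 lower (1.66%), where all units gave 1.28% and 1.6%. With label form as a covariate limma called 0 shore promoters too (smallest adjusted p 0.608).

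A rule of size, without a test, was also applied: group means over 20 points apart and every ICSI-F1 line on the same side of the control-F1 mean. It took 128 shore sites at 82 genes as higher in ICSI-F1 (0.581%) and 15 at 10 genes as lower (0.0681%), against 0.274% and 0.0506% of all sites. Most of all sites were island sites, of which 0.0448% were higher and 0.00961% lower. Shelf sites had larger shares than shores (0.999% and 0.133%), as did sites outside islands, shores and shelves (1.43% and 0.296%). Among sites at 20% to 80% over all lines, 4.87% of shore sites were higher. The share was 0.607% in islands and 9.56% outside islands, shores and shelves. Outside CCGG there were 65 higher sites at 38 genes (0.416%, background 0.161%) and 5 lower sites at 4 genes (0.0320%, background 0.0367%). Inside CCGG there were 63 and 10, with backgrounds of 0.822% and 0.118%. The groups did not overlap at 41 of the 128 and 3 of the 15 sites, where over all sites they did not at 137 of 557 and 18 of 103. As shares of every site, these were 0.186% and 0.0136% of shore sites, against backgrounds of 0.0673% and 0.00884%. More of the higher sites were far from the start: 82 of 128 lay at 600 bp or more, where 23% of all shore sites lay, and outside CCGG 50 of 65, against 21.3%. The rule took 1.62% of shore sites at 600 bp or more and 0.190% of those under 300 bp as higher. Outside CCGG, sites of middle level (20% to 80%), where the lines were spread most, were also more frequent there, with 6.66% of sites at 600 bp or more against 0.363% under 300 bp. Inside CCGG they were not, with 30.2% against 33.4%, while the share of higher sites was 1.84% against 0.548%. Counts depended on single lines. The higher count was 247 without line 44, 230 without line 45 and 222 without line 11, and the lower count was 31 without line 29 or without line 37. Counts over all sites with a line left out are not given here, so these changes cannot be called particular to shores. Line 21 was the highest ICSI-F1 line at 62 of the 128 higher sites. Of 93 higher sites with the other strand measured, 77 had a difference of the same sign there and 28 passed the rule there too.

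The largest difference was at Tbx21, which encodes T-bet, a transcription factor of T cells (chr11:97116252, plus strand, 921 bp upstream). Its level was 18.9%, 48.7%, 25.0% and 35% in control-F1 lines 29, 37, 44 and 45 and 83.3%, 75.0%, 76.7% and 92.6% in ICSI-F1 lines 11, 17, 20 and 21. The groups did not overlap, and the means differed by 49.99 points, with an adjusted p of 0.302 in the limma-moderated logistic test over all sites and 0.0403 to 1 over its 16 alternatives, of which 1, without line 37, was under 0.05. The other strand of this CpG was 35.3 points higher in ICSI-F1, with overlap. The next CpG of the Tbx21 window had 30.9% and 70.5% on the plus strand and 34.7% and 60.0% on the minus strand in control-F1 and ICSI-F1. The shore site inside CCGG at 805 bp had 8.29% and 11.8%. Over the 4 sites outside CCGG the promoter had 31.7% ± 13.7 (SD, n = 4) and 69.3% ± 10.9 (SD, n = 4), and over all 5 sites the difference was 16.3 points within label form 1 and 45.2 points within label form 2. By limma over all promoters its adjusted p was 0.902.

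Pitpnm1, a phosphatidylinositol transfer protein gene, shared the smallest adjusted p of the shore sites, 0.129 in the limma-moderated logistic test, with Exoc3l, a gene of the exocyst family. The site at chr19:4099338 on the plus strand, 660 bp upstream, had 40.3%, 29.7%, 36.0% and 24.1% in control-F1 lines 29, 37, 44 and 45 and 80%, 59.6%, 67.8% and 76.1% in ICSI-F1 lines 11, 17, 20 and 21. The groups did not overlap on either strand of this CpG, and the means differed by 38.4 and 35.4 points. Over 17 alternatives the adjusted p ran from 0.00955 (at least 30 reads as deposited in every line) to 1 (limma on the log2 ratio of reads), and 5 were under 0.05. Over all 24 shore sites Pitpnm1 had 18.6% ± 2.36 and 27.0% ± 2.87 (SD, n = 4), without overlap, and the adjusted p by limma over all promoters was 1. The difference varied along the shore. The 12 sites outside CCGG within 101 bp of the start had means of 1.14% to 6.16%, and at the 6 sites outside CCGG at 628 to 660 bp the ICSI-F1 mean was above the control-F1 mean by 11.8 to 38.4 points.

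Slc45a4, a solute carrier gene, varied widely among the ICSI-F1 lines. At chr15:73646309 on the minus strand, 547 bp upstream and in an exon of the overlapping gene 1700010B13Rik, it had 10.1%, 9.44%, 6.78% and 17.9% in control-F1 lines 29, 37, 44 and 45 and 42.4%, 15.8%, 59.8% and 87.5% in ICSI-F1 lines 11, 17, 20 and 21. Line 17 lay below the highest control-F1 line, so the groups overlapped. The difference was 40.3 points and the adjusted p 0.243 by the limma-moderated logistic test. Over 16 alternatives the latter ran from 0.0138 (without line 17) to 1, and 2 were under 0.05. On the other strand the difference was 31.1 points and the groups did not overlap. Shtn1 had 6 sites past the rule, all outside CCGG. At chr19:59076755 it had 43.7%, 34.5%, 50% and 55.8% in control-F1 lines 29, 37, 44 and 45 and 80%, 84.5%, 58.9% and 95.9% in ICSI-F1 lines 11, 17, 20 and 21, without overlap, and the adjusted p by the limma-moderated logistic test was 0.199, with 0.0202 to 1 over 16 alternatives, 3 of them under 0.05. Exoc3l had 72.3%, 59.4%, 73.8% and 74.4% at chr8:105296294, inside CCGG, in control-F1 lines 29, 37, 44 and 45 and 95.0%, 91.5%, 95.1% and 96.7% in ICSI-F1 lines 11, 17, 20 and 21. There was no overlap of the groups, and over 17 alternatives the adjusted p of the limma-moderated logistic test ran from 0.0123 (at least 30 reads as deposited) to 1, with 4 under 0.05. It was named after its value was seen.

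**Figure D5:**
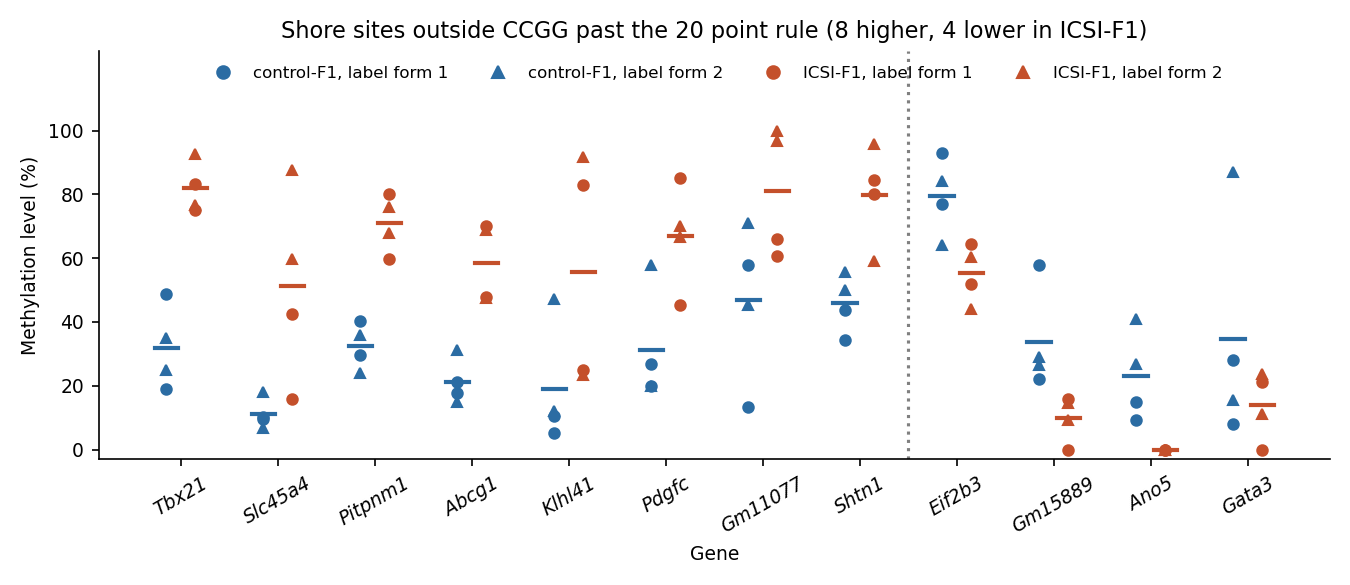
Methylation level (y axis, %) in each line at the shore sites outside CCGG with the largest group differences under the 20-point rule (x axis, genes; 1 site per gene, 8 higher and 4 lower in ICSI-F1, split by the dotted line). Points are lines, coloured by group and shaped by label form, and bars are group means of 4 lines. Control-F1 and ICSI-F1 points do not overlap at Tbx21, Pitpnm1, Abcg1, Shtn1, Gm15889 and Ano5.

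Tjap1, a gene of a tight junction associated protein, had 3 shore sites at 907 to 998 bp, 1 of them inside CCGG and all past the rule. Their mean was 39.1%, 35.5%, 46.2% and 60.4% in control-F1 lines 29, 37, 44 and 45 and 66.6%, 70.3%, 70.02% and 88.6% in ICSI-F1 lines 11, 17, 20 and 21. Without overlap of the groups, the means differed by 28.6 points. The adjusted p by limma over all promoters was 0.935. Other large differences were mostly at single sites. Abcg1, a cholesterol exporter gene with 1 shore site (824 bp), lay at 15.0% to 31.2% in the control-F1 lines and at 47.4% to 70% in those of ICSI-F1. Pdgfc, a growth factor gene, had 20% to 57.7% and 45.5% to 85.2%, and Gm11077 13.4% to 71.0% and 60.8% to 100%, both with overlap. At Klhl41, a gene of skeletal muscle, ICSI-F1 lines 11 and 21 had 82.9% and 91.8% and lines 17 and 20 had 24.8% and 23.3%, while control-F1 lines had 5.33% to 47.3%. Inside CCGG the rule named Olig3, a transcription factor of neural progenitors (49.3% ± 47.4 against 88.2% ± 19.5, SD, n = 4), Gm15749 (55.3% ± 21.5 against 92.9% ± 6.51) and Hnrnpl, a splicing regulator (38.7% ± 18.6 against 74.6% ± 16.8). Olig3 had 3.41% in line 44 and 100% in line 37, both control-F1, so its difference of 38.9 points lay within the range of the control-F1 group alone.

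Gjd3 had the most sites past the rule, 7 of 32, all higher in ICSI-F1 and 4 of them outside CCGG. Over its 23 sites outside CCGG the level was 21.6%, 7.47%, 19.5% and 22.3% in control-F1 lines 29, 37, 44 and 45 and 26.5%, 23.4%, 23.6% and 30.9% in ICSI-F1 lines 11, 17, 20 and 21. The groups did not overlap, and line 37 stood far below the other control-F1 lines. Limma over all promoters used all 32 shore sites, those inside CCGG included, and its adjusted p was 1. In the limma-moderated logistic test none of its sites was called over all 8 lines, while 5 were called with at least 30 reads as deposited (adjusted p 0.0202 to 0.0402) and 3 without line 44.

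Lower sites were few. Gm15889, a gene model on chromosome 8, held 3 of the 15, and the window printed above covers 2 of them. At the CpG inside CCGG (chr8:94377818, minus strand) it had 37.4%, 82.6%, 46.4% and 56.2% in control-F1 lines 29, 37, 44 and 45 and 8.49%, 12.7%, 18.7% and 22.1% in ICSI-F1 lines 11, 17, 20 and 21. The plus strand of the same CpG had a mean of 98.2% over the lines, with group means of 97.5% for control-F1 and 98.8% for ICSI-F1. The neighbouring CpG outside CCGG (chr8:94377814) had 22.0%, 57.8%, 26.5% and 28.9% in the control-F1 lines and 0%, 15.9%, 14.5% and 9.26% in the ICSI-F1 lines. It was lower by 23.8 points without overlap, and its adjusted p in the limma-moderated logistic test was 0.702.

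Ano5, an anoctamin membrane protein gene, had 15.0%, 9.30%, 40.9% and 26.7% at 691 bp in control-F1 lines 29, 37, 44 and 45 and no methylated reads in the 4 ICSI-F1 lines. The other strand was lower by 5.19 points. Over its 6 sites outside CCGG the promoter was lower by 4.46 points within label form 1 and by 19.7 points within label form 2, without overlap. Over all 9 sites it was 0.385 points higher in label form 1 and 19.6 points lower in label form 2, with overlap. Eif2b3, a subunit of the eIF2B translation factor, lay at 64.0% to 92.9% in the control-F1 lines and at 44% to 64.6% in those of ICSI-F1. Gata3, a transcription factor of T cells, had 8.14% to 87.1% in the control-F1 lines, with line 44 highest, and 0% to 23.8% in the ICSI-F1 lines. Fam234a and Otop3 had 58.1% ± 41.1 against 25.7% ± 12.4 and 74.5% ± 7.74 against 45.2% ± 27.7 (SD, n = 4), both inside CCGG. At Otop3 line 21 had 5.88% and the other ICSI-F1 lines 47.7% to 69.2%.

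Gene groups of the germline and of development had mostly low shore levels, as did 92% of all genes with shore sites outside CCGG, whose mean was under 10%. Spermatogonial and germ cell markers had shore sites outside CCGG at 7 genes, all between 1.14% and 4.11%, among them Pax7 (4.09%), Foxo1 (2.90%) and Zbtb16, which encodes PLZF (1.63%). The 4 meiosis and piRNA genes with such sites lay between 3.22% and 9.74%. They included Prdm9, the histone methyltransferase that places meiotic recombination (3.22%), Slc25a31, the ADP/ATP carrier of male germ cells (3.74%), and Rpl10l, a ribosomal protein gene of the testis (5.16%). The 4 genes of somatic testis cells and fibroblasts, with Dhh (4.81%), Cldn11 (8.14%) and Twist1 (1.50%) among them, lay between 1.50% and 8.14%. The medians of these 3 lists were 2.90%, 4.45% and 5.61%, against 2.71% for all genes with shore sites outside CCGG. A shore level does not name a cell type, and expression was not measured here.

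Developmental transcription factors had sites outside CCGG at 25 genes with a median of 3.32%, and 21 of them were under 10%, such as Irx5 (3.44%), Hand1 (6.50%) and Tbx2 (2.10%). Tbx21 was the highest of this list at 50.5%. Of their 288 shore sites 8 (2.78%) passed the 20-point rule, 4 of them in Tbx21, against 0.65% of all shore sites. The share was 3.36% (4 of 119) for DNA methylation and chromatin regulators, 6.25% (2 of 32) for housekeeping genes and 0% in the other lists. DNA methylation and chromatin regulators had a median of 2.96% over 15 genes, with Uhrf2 at 3.38%, and 14 were under 10%. No gene of the 7 lists passed limma over all promoters.

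Nsd1 and Actb were the exceptions of their lists. Nsd1, a histone H3 lysine 36 methyltransferase gene, had 48.2%, 34.1%, 46.8% and 49.5% over its 13 shore sites in control-F1 lines 29, 37, 44 and 45 and 62.0%, 64.8%, 58.2% and 65.6% in ICSI-F1 lines 11, 17, 20 and 21. The groups did not overlap, and the adjusted p by limma over all promoters was 0.902. Its 4 sites past the rule were the list's only ones. Actb, the gene of cytoplasmic actin, had 64.7% at 4 shore sites outside CCGG at 651 to 855 bp, and 2.26% at its 26 island sites. Its difference between groups was 20.1 points within label form 1 and 2.37 points within label form 2. The other 5 housekeeping genes with sites outside CCGG were under 10%.

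The 9 imprinted genes with sites outside CCGG had a median of 4.76%, with Ascl2 at 4.76%, Slc22a3 at 5.43% and Sfmbt2 at 3.30%, and 7 were under 10%. H19 was the highest at 41.3%. Upstream of H19 lies the control region that carries methylation on the paternal copy. No site was assigned to that region here, and shore sites lay at most 999 bp from the start. The H19 shore sites outside CCGG had 2.11% to 4.13% at 61 to 97 bp and 87.1% to 95.6% at 714 to 722 bp. At the site farthest out the control-F1 mean was 94.3% and the ICSI-F1 mean 97.0%. Of the 89 shore sites of the 12 imprinted genes 0 passed the 20-point rule, a count too small to set apart from the 0.65% of all shore sites.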

How the data were processed

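Genomic DNA of 8 GS cell lines was digested with MspI and sequenced as paired reads after bisulfite treatment. The authors trimmed reads with Trim Galore 0.5.0 (RRBS and non-directional options), aligned them to mm10 with Bismark 0.20.0 and joined promoter sites with at least 10 reads in all lines by methylKit (1.16.0 in the submitters' processing notes). The deposited values were methylated and unmethylated reads per strand, scaled in coverage between lines and rounded, and were treated as scores rather than counts. Each line's scaling factor (1.00 to 1.88) was found from the values, which returned 100% of them to whole reads. The design had assumed plain reads. Tests and read minimums used the values as deposited, which overstate the depth of scaled lines, and the unscaled reads were an alternative of the site test.

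Level was 100 times methylated over all reads, and group values were unweighted means of 4 lines. Each site was tested over all sites with a quasi-binomial logistic model whose dispersion was moderated by limma 3.58.1 in R 4.3.3. Promoters with at least 3 sites were tested by limma on the log2 ratio of mean level plus 1 point. Both used Benjamini-Hochberg adjustment over the whole table at 0.05. Both tests were first run on simulated data, with differences added to 50 sites or promoter units of each size. Differences were added only at levels over 10% and to none of high level. Changed sites also had at least 30 reads as deposited in every line. Recovery at other levels or with fewer reads was not simulated. The site test recovered 10%, 28%, 70% and 94% of differences of 20, 30, 40 and 60 points. At unchanged sites it gave an unadjusted p under 0.05 for 8.59%. The promoter test recovered 86% of differences of 20 points and gave such a p for 5.08% of unchanged units. Its simulated spread came from sites drawn independently of each other. Where the sites of a promoter move together between lines, the true recovery may be lower. No p is given for means over sites. CCGG and base content were read from the RefSeq genome GRCm38.p6, in which 203644 of 203645 sites were CpGs, and the features at named sites from the GENCODE annotation.

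Members, gene lists and rules were chosen with earlier results of these data known. Named genes were the 8 higher and 5 lower sites with the largest difference past the 20-point rule (1 per gene), the 3 genes with most such sites, the 3 promoters each of highest level, largest SD and most stable middle level (at least 5 sites), the 3 largest rises and 2 largest falls with distance (at least 10 sites over 300 bp), and the 3 genes with most sites of each list. One gene that the rule names is not reported here. The same rule was repeated on sites outside CCGG after the values had been seen. Genes with an exceptional list value (Nsd1, Actb, H19, Dlx2) were also named after their values were seen. Alternatives were other read minimums, joined strands, other thresholds, each label form, each line left out and, added after seeing the data, sites outside or inside CCGG.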

Additional observations from a re-analysis of the deposited data

Results flagged for a closer look

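In 6 of 130 groups of 4 lines, a named shore promoter had 1 line farther from the others than Dixon's 95% critical value allows, and chance alone flags about 1 in 20. Dlx2, with the 2 strands of 1 CpG, had 52.1% in line 17 and 50% in the other ICSI-F1 lines. Gjd3 was apart in both groups, with 13.1% in line 37 against 27.0% to 28.5% in control-F1 and 41.7% in line 21 against 31.1% to 32.6% in ICSI-F1. Line 21 also stood apart at Gm11077, with 96.8% against 60.4% to 65.4%, and at Tjap1, with 88.6% against 66.6% to 70.3%. Klhl41 had 56.4% in line 44 against 11.3% to 18.4% in the other control-F1 lines. These are means over all shore sites of the promoter.

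At 3 named promoters every line pointed one way in one label form and the other way in the other form. The ICSI-F1 mean was above the control-F1 mean by 6.53 points in label form 1 and by −5.46 points in label form 2 at Cd81. It was 9.40 and −5.13 points at Cdh1, the gene of E-cadherin, and −5.66 and 6.13 points at Rpl10l. The difference between label forms was not tested.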

How the results depend on the processing

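The difference of mean shore level, of its rise with distance and of shore minus island level moved by less than the spread between lines under every alternative, and 0 shore promoters were called by limma under each. The higher count of the 20-point rule (128) was 429 in label form 1 alone, 68 with at least 30 reads, 70 with strands joined, 255, 74 and 34 at thresholds of 15, 25 and 30 points, 41 without overlap, and 65 outside and 63 inside CCGG. With 1 line left out it ranged from 86 (without line 37) to 247 (without line 44). The lower count (15) was 50 and 96 in label forms 1 and 2, 8 with at least 30 reads, 8 with strands joined, 40, 3 and 2 at the same thresholds, 3 without overlap and 5 outside CCGG, and 13 (without line 44) to 31 with 1 line left out. Of these alternatives, shares over all sites are given above only for no overlap and for sites outside or inside CCGG. The other changes in count cannot be called particular to shores. The site test called 0 shore sites, but 2 with at least 20 reads as deposited, 23 with at least 30, 1 with strands joined, and 0 to 14 with 1 line left out (1 without line 37, 14 without line 44, 6 without line 17, 3 without line 20). Over all sites it called 8 of 176578 with at least 20 reads, 80 of 155863 with at least 30 and 1 of 119818 with strands joined. Without line 37 it called 9 of all 195185 sites, and without line 44 70 of 192970. The counts were 16 of 195275 without line 17, 5 of 193487 without line 20 and 6 of 195978 without line 11. With at least 30 reads, 155863 of all sites were tested by the limma-moderated logistic test, against 196818. Its smallest unadjusted p at a shore site was 3.68e-07, against 2.02e-06. The cause of the added calls was not tested. Of 600 alternative values for 60 named promoters, 20 moved by 1 SD or more, all of them single label forms, and 0 on leaving out a line. No paired analysis was possible because the groups share no replicate numbers. Reads carried no molecular identifiers, so depth bounds counting error only.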
